A study of Mus musculus with 27 samples.

Results

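The S100 genes encode small calcium-binding proteins, and 10 of them were followed here through C2C12 cells that carried either full-length NFIA or a deletion mutant of it. The members were the rows of the expression files whose symbol was S100a1, S100a4, S100a6, S100a8, S100a9, S100a10, S100a11, S100a13, S100a16 or S100b, which are 10 of the 24825 genes in the files. S100a8 was chosen by its measured response to forskolin, which raised it most in cells of the deletion mutant on the log2 scale, and that response rests on the untreated and the treated samples of day 7, so its values in every comparison with samples of day 7 are given as a description with no test. For the other 9, no measured value is named in the rule.

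S100 proteins carry a pair of EF-hands, the helix-loop-helix folds that bind calcium, and most work as dimers that change shape with calcium and then attach to a target protein. S100a8 and S100a9 pair to form calprotectin, a product of neutrophils and monocytes that is secreted in inflammation. S100a10 pairs with annexin A2 at membranes, S100a4 and S100a6 accompany motile and dividing mesenchymal cells, S100a1 is known from heart and skeletal muscle, and S100b is best known as a protein of glial cells that adipocytes also make.

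C2C12 is an established mouse myoblast line, which forms muscle fibers when it differentiates. NFIA is a transcription factor of the nuclear factor I family that drives adipocyte differentiation. The cells were control cells, cells with full-length NFIA or cells with the Δpro#3 mutant, which lacks a short stretch of the C-terminal proline-rich domain, and both NFIA constructs were FLAG-tagged and introduced by retrovirus into cells that keep their own Nfia gene. Each kind of cell was sampled on day 0, on day 7 untreated and on day 7 following 4 h of 10 µM forskolin, an activator of adenylyl cyclase, with 3 samples in each of the 9 groups. All cells were given the same adipocyte differentiation medium, the control cells included, with isobutylmethylxanthine, indomethacin, dexamethasone, insulin, T3 and rosiglitazone at its start. The untreated samples at day 7 are labelled as having no treatment, and no vehicle is stated. Nothing in the labels says that samples of a group came from separate cultures, so the p-values measure the spread between these samples only.

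The values were FPKM, fragments counted per length of transcript and per total of the sample, so levels of different genes can be set side by side. The samples held 9567769 to 27230965 fragments, which were worked back from the FPKM. Nfia itself was 242 ± 14.2 FPKM at day 0 in cells given full-length NFIA and 406 ± 14.6 FPKM in those given Δpro#3 (SD, n = 3 each), and 482 ± 40.1 and 413 ± 58.9 FPKM at day 7. In control cells Nfia was under 1 FPKM in 8 of the 9 samples, and replicate 2 at day 0 had 7.35 FPKM. No call on an S100 gene changed when that sample was left out. The sum of 12 skeletal muscle markers was between 1509 and 1607 FPKM in control cells at day 0 and between 15446 and 18213 FPKM at day 7, and no marker of the 12 was at 0 in a whole group. The sum of 12 adipocyte markers at day 7 was between 371 and 410 FPKM in control cells and between 14051 and 15594 FPKM with full-length NFIA. Among the Δpro#3 samples its lowest, median and highest values were 669, 781 and 2109 FPKM, and the highest was that of replicate 1, which stands apart at day 7. In these bulk samples fewer cells of a type and less RNA per cell cannot be told apart.

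Within the list, S100a4 had the highest level and S100a9 the lowest. S100a4 was between 817 and 6177 FPKM over the 27 samples. S100a6, S100a10 and S100a11 came next, with medians over the samples of 731, 683 and 664 FPKM. S100a1, S100a13 and S100a16 lay lower, with medians of 94.3, 87.0 and 54.9 FPKM. S100b did not pass 8 FPKM in any sample, S100a8 ran from 0 to 138 FPKM, and S100a9 reached 0.453 FPKM at most. Together the 10 genes took 0.364% ± 0.0201 of all fragments in control cells at day 0, 0.434% ± 0.0389 under full-length NFIA and 0.537% ± 0.0104 under Δpro#3 (SD, n = 3 each). At day 7 the shares were 0.137% ± 0.00509, 0.206% ± 0.00649 and 0.235% ± 0.0304 in the same order. Of the 10 genes, 9 lie on chromosome 3 between positions 90314956 and 93368565 of mouse build NCBIM37, and S100b lies on chromosome 10 from 75716598 to 75723904.

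**Figure D1:**
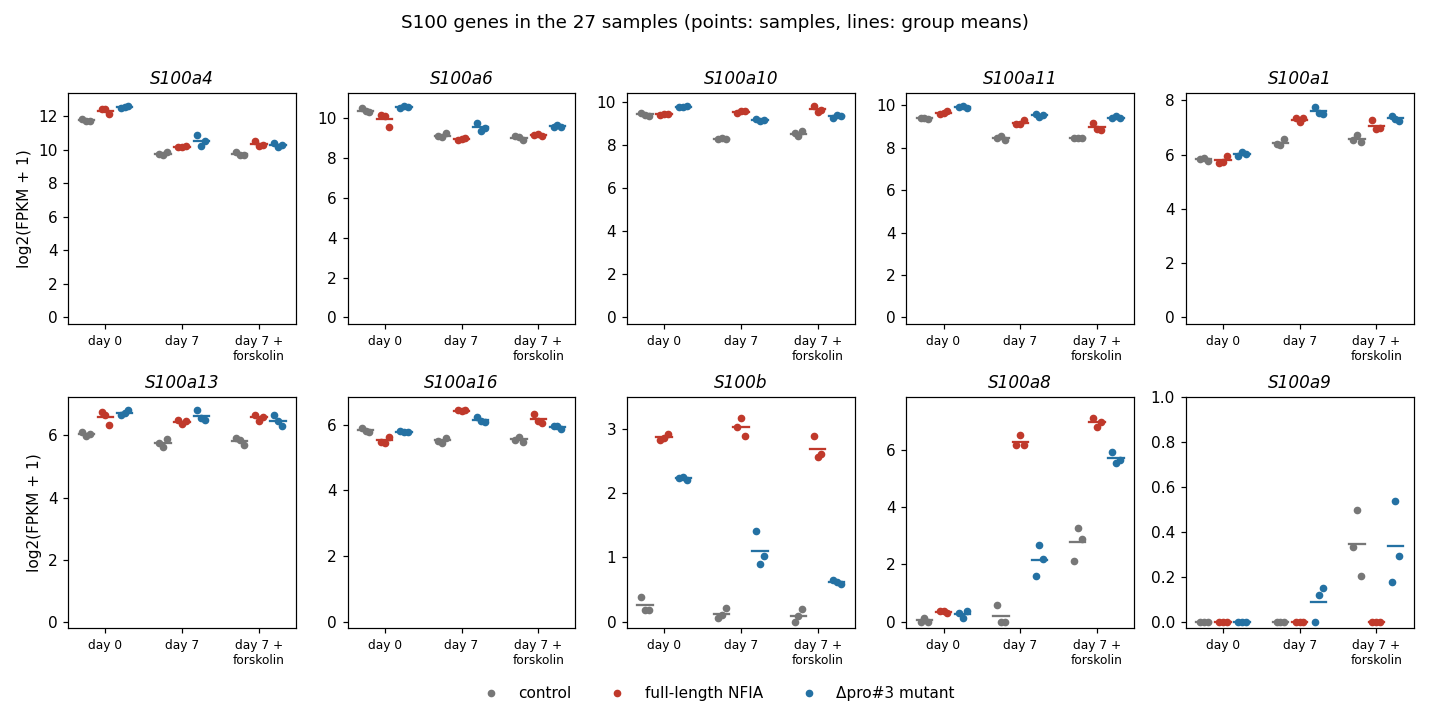
Level of the 10 S100 genes as log2(FPKM + 1) on the y axis in each of the 27 samples, by time point and treatment on the x axis and by construct in color, with points for samples and short lines for group means. S100a4, S100a6, S100a10 and S100a11 stay high in every sample, while S100a8 goes from near 0 at day 0 to above 6 at day 7 in the 3 samples with full-length NFIA only.

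On the log2 scale, S100a8 was the member whose group means differed most, while in FPKM those of S100a4 spanned more. The rank of S100a8 is a description only, since the means include the samples by which it was chosen. S100a8 is a gene of 3 exons on the plus strand of chromosome 3, from 90472993 to 90473956. Its partner gene S100a9 lies 22597 bases further on, on the minus strand, from 90496554 to 90499643. The bases before both genes are shown because the levels of these neighbors went separate ways, and those before S100b because it was the other low gene with higher levels under both constructs. Each is 250 bases long and ends at the base before the gene's start in RefSeq (table build GRCm38.p6). All 3 were found once on their chromosome in NCBIM37, at chr3:90472743-90472992 on the plus strand for S100a8, at chr3:90499644-90499893 on the minus strand for S100a9 and at chr10:75716331-75716580 on the plus strand for S100b. Capitals mark the letters TTGGC, the short core of the nuclear factor I motif, on either strand.
S100a8: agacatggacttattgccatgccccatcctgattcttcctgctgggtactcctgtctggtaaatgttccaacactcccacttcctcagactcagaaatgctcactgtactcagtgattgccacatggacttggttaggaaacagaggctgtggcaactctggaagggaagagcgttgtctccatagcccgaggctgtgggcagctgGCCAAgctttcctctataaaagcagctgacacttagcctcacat
S100a9: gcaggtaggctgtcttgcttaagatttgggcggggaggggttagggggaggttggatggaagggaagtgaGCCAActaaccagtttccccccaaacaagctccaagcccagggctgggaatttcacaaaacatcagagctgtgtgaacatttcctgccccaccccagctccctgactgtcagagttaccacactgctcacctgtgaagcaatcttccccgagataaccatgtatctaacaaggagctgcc
S100b: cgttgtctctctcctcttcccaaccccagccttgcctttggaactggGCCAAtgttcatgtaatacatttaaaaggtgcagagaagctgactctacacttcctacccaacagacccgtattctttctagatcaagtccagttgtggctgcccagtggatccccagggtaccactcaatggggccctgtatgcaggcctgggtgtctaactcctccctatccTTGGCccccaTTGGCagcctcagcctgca

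The letters TTGGC occurred once before S100a8, from 44 to 40 bases before its start, and once before S100a9, from 180 to 176 bases before its start. Before S100b they occurred 3 times, from 203 to 199, from 29 to 25 and from 19 to 15 bases before the start. Of all 32851 RefSeq stretches of this length, 41.5% held TTGGC at least once on either strand and 2.68% held it 3 times or more. Of the 10 stretches of S100 members (9 of the 10 genes were in the table, S100a16 with 2 starts), 6 held it. The full palindromic motif, TTGGC followed by any 5 bases and GCCAA, was in none of the 10 and in 0.0365% of all stretches. The cyclic AMP response element TGACGTCA was in none of the 10 and in 1.55% of all stretches, and its shorter core TGACG, which it contains, was in 1 of the 10, that of S100a13, and in 17.8% of all. The letters TTNNGNAA, a loose form of the C/EBP motif, had 1 match before S100a8 and 2 before S100a9, and were in 36.8% of all stretches. A TATAAA box stood from 30 to 25 bases before the start of S100a8, and 12.4% of all stretches held one. These are matches of letters and not sites of binding.

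At day 0, S100a8 was close to absent. Its levels were 0, 0.0937 and 0 FPKM in control cells, from 1 fragment. They were 0.299, 0.303 and 0.225 FPKM with full-length NFIA, from 7 fragments, and 0.233, 0.104 and 0.295 FPKM with the Δpro#3 mutant, from 6 fragments. In FPKM the groups with NFIA lay above the control group without overlap, and the exact permutation test of 3 against 3 samples gave its smallest 2-sided value, p = 0.1, for each. In fragments, the lowest sample of either group and the highest control sample held 1 each, so the gap between them came from the totals of the samples. The ratio of full-length NFIA to control cells was 8.67, with a 95% exact interval from 1.11 to 391 that covers counting error only, and that of the mutant was 6.38, with an interval from 0.774 to 294.

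At day 7, S100a8 was 0.502, 0 and 0 FPKM in control cells, from 3 fragments in all. With full-length NFIA it was 71.2, 91.5 and 71.2 FPKM, and with the Δpro#3 mutant it was 2.03, 5.46 and 3.60 FPKM. No group overlapped with another. On the log2(FPKM + 1) scale, which understates the change of low genes, S100a8 lay 6.10 above control cells under full-length NFIA and 1.97 above them under Δpro#3, and the mutant lay -4.13 from full-length NFIA. These differences from control cells were 8.74 and 4.28 with a pseudocount of 0.1 and 8.87 and 4.49 with limma-voom on the fragments. As a ratio of fragments per total, the level relative to control cells was 465 (95% exact interval 159 to 2258) for full-length NFIA and 23.2 (7.66 to 115) for Δpro#3, which covers counting error only. The untreated samples of day 7 set the baseline of the forskolin response by which S100a8 was chosen, and no test is given for these values. Among the mutant samples of day 7, replicate 1 had the most adipocyte marker expression and the least S100a8, from 9 fragments.

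The change from day 0 to day 7 followed the same order. On the log2 scale the change of S100a8 was 5.94 under full-length NFIA and 1.89 under Δpro#3, again as a description. In control cells the fitted change was 0.15, at 1 fragment over the samples of day 0 and 3 over those of day 7.

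After 4 h of forskolin, S100a8 was 3.37, 8.79 and 6.42 FPKM in control cells, 138, 112 and 127 FPKM under full-length NFIA and 60.2, 46.1 and 49.0 FPKM in mutant-expressing cells. Every treated sample was above every untreated sample of the same cells at day 7. Which cells answered most depended on the scale. On log2(FPKM + 1), the response was 3.55 in Δpro#3 mutant-expressing cells, 2.57 in control cells and 0.68 in full-length NFIA-expressing cells. As a ratio of fragments per total, it was 12.6 (95% exact interval 10.0 to 15.97) with the mutant, 34.3 (11.5 to 168) in control cells, where the untreated group held 3 fragments, and 1.53 (1.43 to 1.64) with full-length NFIA. These intervals cover counting error only and are no test, since S100a8 was chosen by this response. As a difference of mean FPKM the response was 48.1 with the mutant, 47.6 with full-length NFIA and 6.02 in control cells. The gap between the mutant and control cells on the log2 scale, 0.97 with a pseudocount of 1, turned to -1.14 with a pseudocount of 0.1 and to -1.30 with limma-voom on the fragments. After forskolin, the mutant still lay below full-length NFIA, at 51.8 ± 7.45 against 126 ± 13.1 FPKM (SD, n = 3 each).

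**Figure D2:**
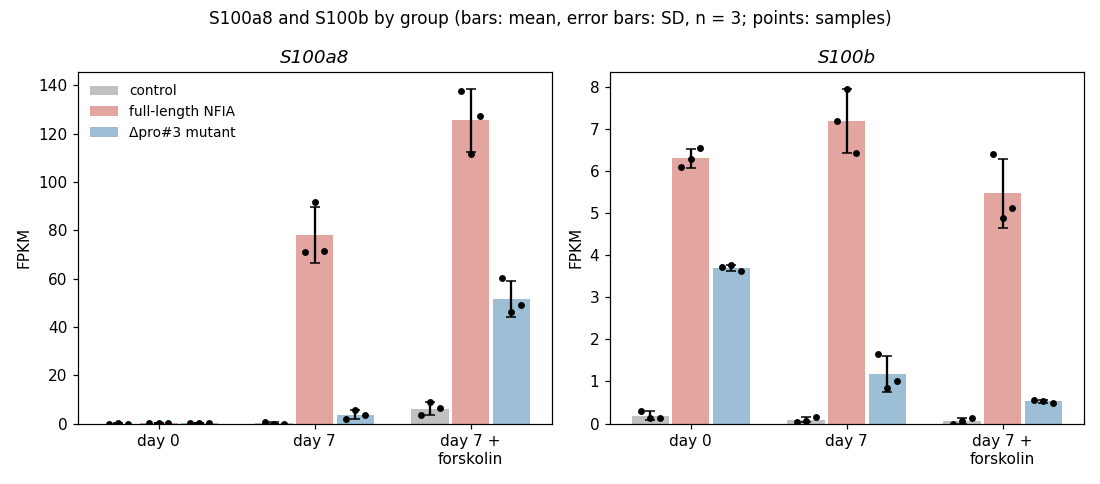
Level of S100a8 (left) and S100b (right) in FPKM on the y axis by time point and treatment, with bars for the mean of 3 samples, error bars for the SD and points for the samples. S100a8 with the Δpro#3 mutant goes from 3.70 to 51.8 FPKM with forskolin, and S100b with the mutant goes from 3.70 FPKM at day 0 to 1.17 FPKM at day 7.

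S100a9, the partner of S100a8 in calprotectin, was barely detected. It had no fragment in any of the 9 samples with full-length NFIA, where S100a8 reached its highest levels, and none in any sample of day 0 or in untreated control cells at day 7. The untreated Δpro#3 mutant-expressing cells at day 7 had 0, 1 and 1 fragment. After forskolin, control cells had 3, 4 and 1 fragments (0.261, 0.411 and 0.150 FPKM) and mutant-expressing cells had 1, 4 and 3 fragments (0.129, 0.453 and 0.225 FPKM). Against untreated cells neither group overlapped in FPKM, with the smallest p that the exact permutation test of 3 against 3 allows, p = 0.1, for each, but in fragments the lowest treated and the highest untreated sample with the mutant held 1 each. With full-length NFIA and forskolin, 0 fragments over the group allow up to 0.121 FPKM at 3 fragments, for counting error only. S100a9 was below the level tested by limma in every comparison.

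Because S100a8 is known from myeloid cells, their markers were read in the same samples. Of 17 myeloid markers in the files, between 4 and 9 had no fragment in a whole group, and their summed level was between 8.35 and 40.4 FPKM over the 27 samples. At day 7 it was 19.2 to 20.02 FPKM in control cells, 24.4 to 26.2 FPKM with full-length NFIA and 13.9 to 17.4 FPKM with the Δpro#3 mutant. At day 0 it was 8.35 to 8.68, 29.9 to 31.8 and 19.8 to 20.6 FPKM in the same order. After forskolin the sum was 26.2 to 33.4, 32.7 to 40.4 and 22.0 to 26.9 FPKM, above every untreated sample of the same cells at day 7, as S100a8 was. Ptprc, which encodes the leukocyte antigen CD45, had 1 fragment over the 9 untreated samples of day 7, in control cells, and none in those treated with forskolin. Csf3r, the receptor for granulocyte colony-stimulating factor, had none in any sample of day 7. Adgre1, another of the 17, was above 0 in untreated cells with full-length NFIA at day 7 and in no other group. Ngp was also above 0 there, and at 0 in untreated control and mutant-expressing cells of day 7. Markers with no fragment numbered 6 with full-length NFIA, 6 in control cells and 7 with the mutant, all untreated at day 7. Camp, which encodes a granule peptide of neutrophils, was among the few markers that moved. It rose at day 7 with full-length NFIA, at 9.60, 9.97 and 9.35 FPKM against 0, 0.0992 and 0 FPKM in control cells (log2 difference 3.37, SE 0.09, limma adjusted p = 4.25e-10). Lyz2, the lysozyme of macrophages, also rose with full-length NFIA (1.16, SE 0.11, limma adjusted p = 5.08e-06) and Cd68 fell (-0.54, SE 0.08, limma adjusted p = 0.000181). Of the 4 markers tested at day 7, 2 were higher and 1 lower with full-length NFIA, beside 31.3% and 41.1% of all genes. With the mutant 1 was higher and 1 lower, beside 21.3% and 27.5% of all genes. The part of other cells in the level of S100a8 was not tested.

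The innate and acute-phase list was read for genes that tend to accompany S100a8 in inflammation. At day 7, 5 of its 13 tested genes were higher and 5 lower with full-length NFIA, beside 31.3% and 41.1% of all genes. Their median difference was 0.16 beside -0.08 over all genes tested. C3, a complement component, rose from 1.66 to 419 FPKM and Lcn2, an iron carrier of neutrophils and adipocytes, from 0.222 to 92.6 FPKM, log2 differences of 7.30 (SE 0.25, limma adjusted p = 2.58e-09) and 6.27 (SE 0.23, limma adjusted p = 3.98e-09). The chemokine genes Ccl7 and Ccl2 fell, by -3.75 (SE 0.17, limma adjusted p = 2.28e-08) and -2.80 (SE 0.24, limma adjusted p = 2.62e-06). Under Δpro#3, 9 of the 13 were higher and 3 lower at day 7, beside 21.3% and 27.5% of all genes. Their median was 0.41 beside -0.04 over all genes. Forskolin raised 6 of the 13 genes in each kind of cell and lowered 1 in control cells. Of all genes, it raised 7.05%, 13.9% and 11.9% in control, full-length NFIA- and mutant-expressing cells, and lowered 13.5%, 41.5% and 23.9%. Within the list Il6, which encodes interleukin-6, had the largest rise in each. It went from 0.308 to 5.87 FPKM in control cells, from 0.113 to 3.66 FPKM with full-length NFIA and from 0.711 to 12.1 FPKM with the mutant. Lcn2, which was also low in mutant-expressing cells at day 7 (1.76, 0.695 and 0.397 FPKM), was at 1.43, 0.557 and 0.600 FPKM in them after forskolin.

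S100b was the other member with a large effect of the constructs, and it was raised before differentiation. At day 0 it was 0.305, 0.133 and 0.138 FPKM in control cells, 6.08, 6.27 and 6.54 FPKM with full-length NFIA and 3.71, 3.77 and 3.62 FPKM with the Δpro#3 mutant. The groups did not overlap. The log2 difference from control cells was 2.62 (SE 0.06, limma adjusted p = 3.84e-11) with full-length NFIA and 1.98 (SE 0.06, limma adjusted p = 8.27e-10) with the mutant, which differed from full-length NFIA by -0.63 (SE 0.06, limma adjusted p = 5.80e-06). As a ratio of fragments, the levels were 33.3 times (95% exact interval 22.2 to 52.4) and 19.7 times (13.1 to 31.1) those of control cells, from 24 fragments in the control group.

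From day 0 to day 7 the 2 constructs parted. S100b was 7.17, 7.95 and 6.43 FPKM with full-length NFIA at day 7, a change of 0.16 from day 0 that did not pass (limma adjusted p = 0.170), and that was 0.29 and passed with median-ratio scaling (limma adjusted p = 0.0205). In mutant-expressing cells it was 1.65, 0.851 and 1.02 FPKM, a fall by -1.13 (SE 0.11, limma adjusted p = 3.82e-08). The difference between these changes was -1.29 (SE 0.15, limma adjusted p = 1.23e-06). Control cells had 0.0395, 0.0715 and 0.154 FPKM at day 7, below both constructs in every sample. The change of S100b from day 0 in control cells was -0.13 and did not pass (limma adjusted p = 0.272). It was -0.63 and passed with a pseudocount of 0.1 (limma adjusted p = 0.0262). At day 7 full-length NFIA was above control cells by 2.91 (SE 0.13, limma adjusted p = 1.94e-08), the mutant by 0.98 (SE 0.13, limma adjusted p = 0.000218), and the mutant lay -1.93 from full-length NFIA (SE 0.13, limma adjusted p = 5.84e-07). Replicate 1 of the mutant, high in adipocyte markers, was also its highest for S100b.

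Forskolin lowered S100b in both kinds of NFIA-expressing cells. It was 6.4, 4.89 and 5.11 FPKM with full-length NFIA after forskolin, a response of -0.34 (SE 0.12, limma adjusted p = 0.0220), and 0.570, 0.536 and 0.498 FPKM with the Δpro#3 mutant, a response of -0.49 (SE 0.12, limma adjusted p = 0.00469). The 2 responses were not shown to differ, at -0.14 (SE 0.17, limma adjusted p = 0.597). With full-length NFIA the call was lost under median-ratio scaling of the samples, at -0.23, and with a pseudocount of 0.1, at -0.39 (limma adjusted p = 0.268).

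S100b is widely used as a glial marker, so 7 other glial genes were read. Sox10 was between 0 and 0.0283 FPKM as a group mean. The summed level at day 0 was 28.8 to 29.9 FPKM in control cells, 13.7 to 14.8 FPKM with full-length NFIA and 13.5 to 13.8 FPKM with the mutant, while S100b was higher with either construct than in control cells. Most of the sum was Ncam1, an adhesion molecule also found on muscle cells and the only gene of the 7 that was high enough to be tested. At day 0 it fell by 1.08 with full-length NFIA (SE 0.04, limma adjusted p = 6.54e-10) and by 1.07 with the mutant (SE 0.04, limma adjusted p = 1.79e-09). At day 7 Ncam1 fell by 0.74 with full-length NFIA (SE 0.04, limma adjusted p = 1.01e-07) and did not pass with the mutant (-0.05, SE 0.04, limma adjusted p = 0.357).

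S100a4, S100a6, S100a10 and S100a11 are broadly expressed in mesenchymal cells, and all 4 fell from day 0 to day 7 in control cells. S100a4 (chromosome 3 from 90407692 to 90409967) went from 3722, 3415 and 3333 FPKM to 845, 831 and 922 FPKM in control cells. It went from 5504, 5454 and 4563 to 1144, 1158 and 1220 FPKM with full-length NFIA, and from 5896, 6040 and 6177 to 1905, 1199 and 1470 FPKM with the Δpro#3 mutant. The fall was alike in size in the 3 kinds of cells, by -2.01 (SE 0.12), -2.13 (SE 0.12) and -2.01 (SE 0.12) on the log2 scale, with limma adjusted p = 9.79e-11, 3.42e-11 and 1.06e-10. The differences between these changes were -0.12, -0.00 and 0.12 with an SE of 0.17 each and did not pass. The levels differed. Both constructs raised S100a4 at day 0, by 0.56 (SE 0.08, limma adjusted p = 5.63e-05) and 0.79 (SE 0.08, limma adjusted p = 6.33e-06), and at day 7, by 0.44 (SE 0.14, limma adjusted p = 0.0148) and 0.79 (SE 0.14, limma adjusted p = 0.00105). The mutant was above full-length NFIA by 0.35 at day 7 (SE 0.14, limma adjusted p = 0.0454), where the samples overlapped. Without replicate 1 of the mutant this difference was 0.18, and it no longer passed when 1 of 8 of the 9 samples was left out, at 0.18 to 0.38, with median-ratio scaling, at 0.31, or without the filter on low values, at 0.35.

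S100a6 (chromosome 3 from 90416816 to 90418336), known as calcyclin and first described in dividing cells, was lowered by full-length NFIA at day 0. It was 1422, 1285 and 1246 FPKM in control cells, 1115, 1108 and 750 FPKM with full-length NFIA and 1452, 1561 and 1496 FPKM with the Δpro#3 mutant. The difference was -0.43 with full-length NFIA (SE 0.13, limma adjusted p = 0.0111), and the mutant was above full-length NFIA by 0.62 (SE 0.13, limma adjusted p = 0.00152). The lowest value, 750 FPKM, was that of replicate 3 with full-length NFIA, which had the fewest fragments of its time point (11323688), and without that sample the difference from control cells was -0.24. At day 7 S100a6 was 545, 518 and 598 FPKM in control cells, 479, 485 and 503 FPKM with full-length NFIA and 852, 656 and 731 FPKM with the mutant, and the mutant was again above full-length NFIA, by 0.60 (SE 0.09, limma adjusted p = 0.000254). It fell from day 0 to day 7 by -1.25 (SE 0.12), -0.99 (SE 0.12) and -1.02 (SE 0.12) in control, full-length NFIA- and mutant-expressing cells (limma adjusted p = 6.27e-08, 1.08e-06 and 8.61e-07). Cell cycle genes moved with this fall in all 3 kinds of cells, where 12 of 12 tested were lower at day 7 (medians -2.03, -3.23 and -2.17 beside -0.06, -0.11 and -0.11 over all genes), and their part in it was not tested. At day 0 full-length NFIA raised 12 of these 12 and 37.7% of all genes (median 1.40 beside 0.01), while S100a6 was lower there. Of 7 fibroblast markers tested, 4 fell in control cells over the 7 days, such as Vim, and 1 rose. In control cells 42.7% of all genes fell and 36.0% rose, and 46.5% fell with full-length NFIA and 46.7% with the mutant.

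S100a10 (chromosome 3 from 93359002 to 93368565) was the high-level member that full-length NFIA raised most at day 7. It was 310, 321 and 307 FPKM in control cells, 729, 767 and 776 FPKM with full-length NFIA and 591, 552 and 579 FPKM with the Δpro#3 mutant, with no overlap. Full-length NFIA raised it by 1.27 (SE 0.05, limma adjusted p = 1.15e-08) and the mutant by 0.87 (SE 0.05, limma adjusted p = 1.81e-06), and the mutant was below full-length NFIA by -0.40 (SE 0.05, limma adjusted p = 9.02e-05). At day 0 the order had been another. Full-length NFIA had left S100a10 at 683, 697 and 705 FPKM beside 730, 683 and 658 FPKM in control cells (0.01, limma adjusted p = 0.832), while the mutant had 870, 870 and 902 FPKM and was above full-length NFIA by 0.34 (SE 0.04, limma adjusted p = 3.38e-05). From day 0 to day 7 S100a10 thus fell by -1.14 in control cells (SE 0.05, limma adjusted p = 6.14e-13) and by -0.62 with the mutant (SE 0.05, limma adjusted p = 1.55e-09), and rose by 0.12 with full-length NFIA (SE 0.05, limma adjusted p = 0.0196). The rise no longer passed without replicate 1 of day 0 or replicate 2 or 3 of day 7, at 0.11 each, and was 0.27 with median-ratio scaling.

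Anxa2, which encodes the annexin that S100a10 binds, was read from the list of partners and targets. It was 742, 702 and 679 FPKM in control cells at day 0 and 292, 285 and 271 FPKM at day 7, a fall by -1.32 (SE 0.05, limma adjusted p = 4.98e-13). With full-length NFIA Anxa2 rose from 1150, 1127 and 1174 to 1759, 1886 and 1858 FPKM (0.67, SE 0.05, limma adjusted p = 2.34e-09), and under Δpro#3 it fell from 1017, 1018 and 1051 to 599, 532 and 584 FPKM (-0.85, SE 0.05, limma adjusted p = 1.40e-10). At day 7 the difference of Anxa2 from control cells was 2.69 with full-length NFIA (SE 0.06, limma adjusted p = 2.90e-10) and 1.01 with the mutant (SE 0.06, limma adjusted p = 2.19e-06), beside 1.27 and 0.87 for S100a10. Of the 15 genes of this list tested at day 7, 6 were higher and 8 lower with full-length NFIA, beside 31.3% and 41.1% of all genes. Their median was -0.31 beside -0.08 over all genes. With the mutant 7 were higher and 2 lower, beside 21.3% and 27.5% of all genes, with a median of 0.13 beside -0.04. The genes with the largest falls with full-length NFIA were Atp2a1, the calcium pump of fast muscle fibers (-3.21, SE 0.11, limma adjusted p = 2.50e-09), and Ryr1, their calcium release channel (-2.03, SE 0.12, limma adjusted p = 1.31e-07), both known targets of S100a1. After Anxa2, the next largest rise was that of Anxa5 (1.26, SE 0.07, limma adjusted p = 5.46e-08).

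S100a11 (chromosome 3 from 93324410 to 93330209), which binds annexin A1, was 667, 669 and 653 FPKM in control cells at day 0, 769, 798 and 851 FPKM with full-length NFIA and 972, 1006 and 944 FPKM with the Δpro#3 mutant. At day 7 it was 354, 367 and 326 FPKM, 549, 554 and 631 FPKM and 774, 697 and 746 FPKM in the same order. The 3 groups kept the same order at both times with no overlap. The mutant was above control cells by 0.55 at day 0 (SE 0.04, limma adjusted p = 1.05e-06) and by 1.08 at day 7 (SE 0.07, limma adjusted p = 3.53e-06), and above full-length NFIA by 0.27 (SE 0.04, limma adjusted p = 0.000226) and 0.36 (SE 0.07, limma adjusted p = 0.00189). The fall over the 7 days was -0.92 in control cells (SE 0.06, limma adjusted p = 4.11e-10), -0.48 with full-length NFIA (SE 0.06, limma adjusted p = 1.64e-06) and -0.40 with the mutant (SE 0.06, limma adjusted p = 1.46e-05).

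S100a1 was the 1 member that rose from day 0 to day 7 in all 3 kinds of cells. It is encoded on the minus strand of chromosome 3 from 90314956 to 90318314, and S100a13 starts on the other strand after 42 bases, from 90318357 to 90328503. S100a1 went from 56.5, 58.2 and 53.3 to 81.8, 81.1 and 94.3 FPKM in control cells, from 51.1, 51.7 and 60.3 to 161, 145 and 160.0 FPKM with full-length NFIA, and from 61.2, 67.5 and 63.4 to 216, 183 and 180 FPKM with the Δpro#3 mutant. The rises were 0.60 (SE 0.08, limma adjusted p = 2.68e-06), 1.501 (SE 0.08, limma adjusted p = 1.85e-11) and 1.57 (SE 0.08, limma adjusted p = 1.55e-11). They were larger with full-length NFIA than in control cells by 0.90 (SE 0.11, limma adjusted p = 2.22e-06) and larger with the mutant by 0.97 (SE 0.11, limma adjusted p = 3.40e-06). At day 7 the mutant was above full-length NFIA by 0.30 (SE 0.09, limma adjusted p = 0.0102). Skeletal muscle markers rose over the same 7 days, 12 of 12 in control cells (median 3.67), 12 of 12 with full-length NFIA (median 6.05) and 11 of 12 with the mutant (median 7.24), beside medians of -0.06, -0.11 and -0.11 over all genes. At day 7 itself full-length NFIA lowered 12 of 12 against control cells (median -2.64), and 3 were higher and 4 lower with the mutant (median -0.11). Of all genes, 36.0%, 33.2% and 32.8% rose over the 7 days in control, full-length NFIA- and mutant-expressing cells. At day 7, 41.1% of all genes were lower with full-length NFIA, and 21.3% were higher and 27.5% lower with the mutant. The part of the muscle markers in the values of S100a1 was not tested.

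S100a13, which takes part in the release of fibroblast growth factor 1, was raised by both constructs at both times. It was 67.9, 61.6 and 64.6 FPKM in control cells at day 0, 106, 101 and 80.8 FPKM with full-length NFIA and 99.7, 106 and 111 FPKM with the Δpro#3 mutant, differences of 0.55 (SE 0.09, limma adjusted p = 0.000171) and 0.70 (SE 0.09, limma adjusted p = 4.63e-05). At day 7 it was 52.7, 48.3 and 58.0 FPKM, 89.8, 82.5 and 86.9 FPKM and 112, 92.8 and 89.9 FPKM, differences of 0.70 (SE 0.09, limma adjusted p = 5.35e-05) and 0.88 (SE 0.09, limma adjusted p = 4.41e-05). The mutant and full-length NFIA did not pass against each other, at 0.14 on day 0 (limma adjusted p = 0.173, and 0.22 with limma adjusted p = 0.0479 without replicate 1 of full-length NFIA) and 0.18 on day 7 (limma adjusted p = 0.111). Its change over the 7 days passed in control cells (-0.29, SE 0.10, limma adjusted p = 0.0122, and -0.22 and not past the threshold without replicate 2 of day 7) and not with full-length NFIA (-0.14, which turned to 0.0060 with median-ratio scaling and to -0.26, which passed, without replicate 3 of day 0) or the mutant (-0.11, which turned to 0.02 with scaling).

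S100a16 (chromosome 3 from 90341176 to 90347073), a widely expressed member known from adipocyte differentiation, was lowered by full-length NFIA at day 0 and raised at day 7. It was 58.4, 54.8 and 54.1 FPKM in control cells, 43.5, 42.7 and 48.9 FPKM with full-length NFIA and 54.9, 54.5 and 54.1 FPKM with the Δpro#3 mutant at day 0. The difference with full-length NFIA was -0.30 (SE 0.05, limma adjusted p = 0.000200), and that with the mutant was -0.03 (limma adjusted p = 0.575). At day 7 it was 44.7, 43.0 and 47.9 FPKM, 85.7, 84.2 and 87.0 FPKM and 74.3, 68.5 and 67.4 FPKM in the same order. Full-length NFIA was above control cells by 0.91 (SE 0.06, limma adjusted p = 1.92e-07), the mutant by 0.62 (SE 0.06, limma adjusted p = 1.87e-05), and the mutant was below full-length NFIA by -0.29 (SE 0.06, limma adjusted p = 0.00124). From day 0 to day 7 S100a16 fell in control cells by -0.30 (SE 0.05, limma adjusted p = 6.92e-05) and rose with full-length NFIA by 0.91 (SE 0.05, limma adjusted p = 6.19e-11) and with the mutant by 0.36 (SE 0.05, limma adjusted p = 1.08e-05).

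As counts, full-length NFIA raised 4 and lowered 2 of the 8 members tested at day 0, where 37.7% of all 12105 genes tested were higher and 35.6% lower. The Δpro#3 mutant raised 6 and lowered none of the 8, and 32.5% of all genes were higher and 29.7% lower. Against full-length NFIA, 6 members were higher and 1 lower with the mutant, where 33.4% of all genes were higher and 31.9% lower. At day 7, 7 of the 8 members tested were higher with full-length NFIA, none was lower and S100a6 did not pass (-0.18, limma adjusted p = 0.111, and 0.0376 as lower without replicate 1 of the mutant), where 31.3% of all 12324 genes were higher and 41.1% lower. With the mutant 8 of 8 were higher, where 21.3% of all genes were higher and 27.5% lower. Median-ratio scaling took the 3852 higher and 5065 lower genes with full-length NFIA to 4477 and 4302, and the 2620 and 3393 with the mutant to 3132 and 2751. The median difference of the 8 members was 0.79 (full-length NFIA) and 0.87 (mutant), beside -0.08 and -0.04 over all genes. Between the mutant and full-length NFIA at day 7, 4 were higher with the mutant (S100a1, S100a4, S100a6 and S100a11) and 3 lower (S100a10, S100a16 and S100b), where 34.3% of all genes were higher and 29.4% lower. The comparisons with control cells share the control samples.

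**Figure D3:**
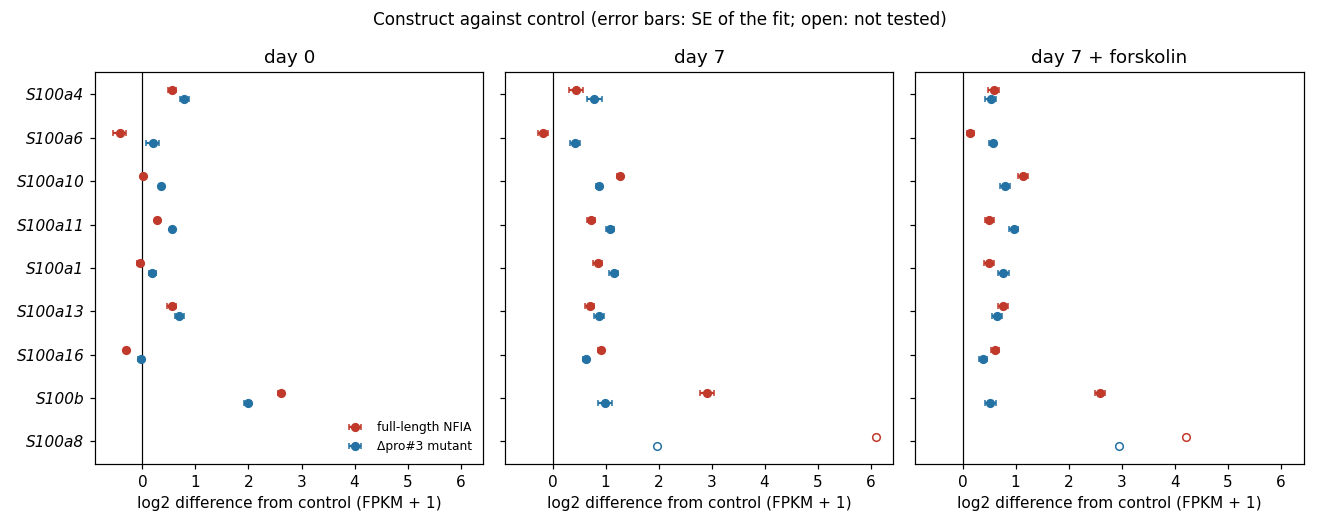
Difference from control cells on the log2(FPKM + 1) scale (x axis) of 9 S100 genes (y axis) with full-length NFIA (red) and the Δpro#3 mutant (blue), with error bars for the SE of the fit. Open points are the values of S100a8, 6.10 and 1.97 at day 7 and 4.21 and 2.94 with forskolin, which have no test, and S100a8 was too low to be tested at day 0. Most points lie to the right of 0 at day 7, and with full-length NFIA those of S100a8 and S100b lie furthest.

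Over the 7 days in differentiation medium, 6 of the 8 members tested fell and 1, S100a1, rose in control cells, where 36.0% of all 12408 genes were higher at day 7 and 42.7% lower. S100b also passed as lower in control cells with a pseudocount of 0.1. With full-length NFIA 3 rose and 3 fell (4 rose with median-ratio scaling, S100b among them), where 33.2% of all genes were higher and 46.5% lower, and under Δpro#3 2 rose and 5 fell, where 32.8% were higher and 46.7% lower. The median change over all genes was -0.11 with either construct. Median-ratio scaling moved it to 0.02 with full-length NFIA and to -0.00 with the mutant, and with full-length NFIA it took the 4115 higher and 5770 lower genes to 5046 and 4703. Tested as differences between the changes, which were added after the values were seen, 4 members changed more upward with full-length NFIA than in control cells and none more downward (31.1% of all genes higher, 40.1% lower). With the mutant 4 changed more upward than in control cells and S100b more downward (-1.001, and -0.82 and not past the threshold with limma-voom), where 18.9% of all genes were higher and 25.9% lower, 2341 higher and 3209 lower genes that scaling took to 2844 and 2510. Between the mutant and full-length NFIA 3 members changed more downward with the mutant and none more upward (33.9% of all genes higher, 29.5% lower).

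**Figure D4:**
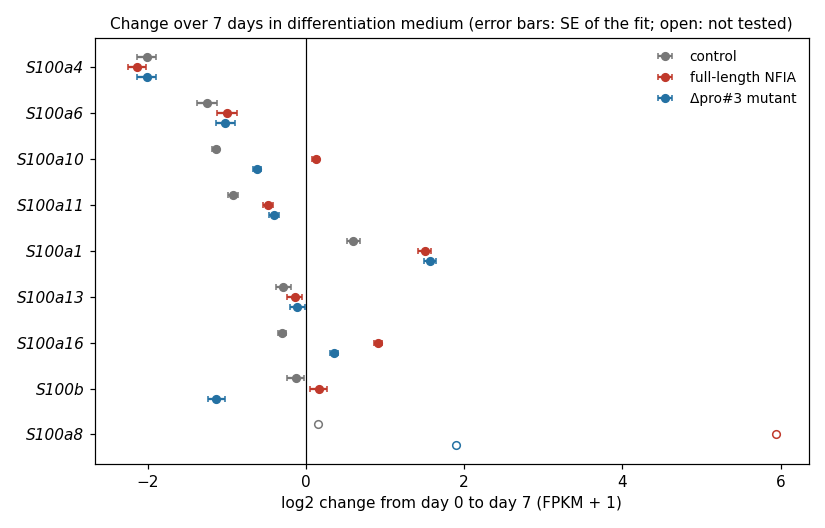
Change from day 0 to day 7 on the log2(FPKM + 1) scale (x axis) of 9 S100 genes (y axis) in control (gray), full-length NFIA- (red) and Δpro#3 mutant-expressing cells (blue), with error bars for the SE of the fit. S100a4 falls by about the same amount in the 3 kinds of cells (-2.01, -2.13 and -2.01), S100a10 and S100a16 separate by construct, and S100b falls with the mutant. The open points of S100a8, at 0.15, 5.94 and 1.89, have no test.

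Forskolin treatment left the differences between constructs in most members. After it, 7 of the 8 members tested were higher with full-length NFIA than in control cells and none was lower, where 25.5% of all 12121 genes were higher and 47.0% lower. The exception was S100a6, at 0.14 (limma adjusted p = 0.0907), which was at 0.34 and passed with median-ratio scaling (limma adjusted p = 0.00216). In mutant-expressing cells 8 of 8 were higher, where 19.5% of all genes were higher and 27.1% lower, and between the mutant and full-length NFIA 3 were higher and 3 lower, where 42.0% were higher and 24.2% lower. In this last comparison scaling took S100a1 from 0.27 to 0.13, which did not pass (limma adjusted p = 0.287), and S100a13 to -0.25, which did (limma adjusted p = 0.0454). Without the filter on low values, or without any of 4 samples, S100a1 did not pass either, at 0.21 to 0.27. The median over all genes was -0.17 for full-length NFIA against control cells and 0.12 for the mutant against full-length NFIA, and median-ratio scaling moved both to within 0.01 of 0 and the counts from 3088 higher and 5697 lower to 4208 and 4234, and from 5085 and 2938 to 3820 and 3817. S100a10, for example, was 382, 339 and 399 FPKM in control cells with forskolin, 914, 756 and 794 FPKM with full-length NFIA and 607, 682 and 651 FPKM with the mutant.

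On the log2(FPKM + 1) scale, the response to forskolin itself was small in the members other than S100a8. That scale understates the change of low genes, such as S100b with the mutant, whose mean went from 1.17 to 0.535 FPKM. In control cells S100a10 rose by 0.25 (SE 0.07, limma adjusted p = 0.0233) and 7 of the 8 tested did not pass, where 7.05% of all 12245 genes were higher and 13.5% lower. With full-length NFIA S100a6 rose by 0.21 (SE 0.08, limma adjusted p = 0.0390), and S100a11 (-0.22, SE 0.08, limma adjusted p = 0.0360), S100a16 (-0.27, SE 0.07, limma adjusted p = 0.00274) and S100b fell, where 13.9% of all genes were higher and 41.5% lower. In mutant-expressing cells S100a1 (-0.26, SE 0.10, limma adjusted p = 0.0448), S100a16 (-0.21, SE 0.07, limma adjusted p = 0.0201) and S100b fell and none rose, where 11.9% were higher and 23.9% lower. The median of all genes in full-length NFIA-expressing cells was -0.15 and moved to -0.04 with scaling, under which S100a11, S100a16 and S100b no longer passed there (-0.08, -0.13 and -0.23). With scaling, S100a1 and S100a16 also no longer passed in mutant-expressing cells (-0.22 and -0.17). Scaling also took the genes higher and lower with forskolin from 863 and 1651 to 1118 and 1044 in control cells and from 1698 and 5087 to 2740 and 3489 with full-length NFIA.

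Most of these small responses lost their call when 1 sample was left out. Without replicate 1 or 3 of either control group, S100a10 was at 0.20 to 0.24 and did not pass. With full-length NFIA, S100a6 did not pass without any 1 of the 3 untreated samples or without replicate 1 or 2 of the treated ones (0.19 to 0.23). S100a11 did not pass there without untreated replicate 3 or treated replicate 2 or 3 (-0.17 to -0.15), and was at -0.33 without treated replicate 1, and S100b without untreated replicate 2 or treated replicate 2 or 3 (-0.31 to -0.28). In mutant-expressing cells, S100a16 did not pass without untreated replicate 1 or treated replicate 3 (-0.18 to -0.17), and S100a1 without any of 7 of the 18 samples of the fit (-0.26 to -0.18).

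Between full-length NFIA-expressing and control cells the response differed for S100a6, by 0.32 (SE 0.12, limma adjusted p = 0.0488), and for S100a16, by -0.29 (SE 0.09, limma adjusted p = 0.0272), where 9.16% of all genes were higher and 21.5% lower, 1122 higher and 2630 lower genes that scaling took to 1540 and 1859. The difference for S100a6 no longer passed without any of 14 of the 18 samples (0.26 to 0.34) and that for S100a16 without any of 6 (-0.29 to -0.23). Between mutant-expressing and control cells limma passed 0 of 8 members, with 3 at an unadjusted p under 0.05, and limma-voom on fragments passed 0, with 2 at an unadjusted p under 0.05 (background 2.47% higher, 2.50% lower). Between mutant- and full-length NFIA-expressing cells limma also passed 0 of 8, with 1 at an unadjusted p under 0.05, and limma-voom 0, with 2 (15.8% higher, 5.88% lower, 1932 higher and 720 lower genes that scaling took to 1187 and 1127).

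**Figure D5:**
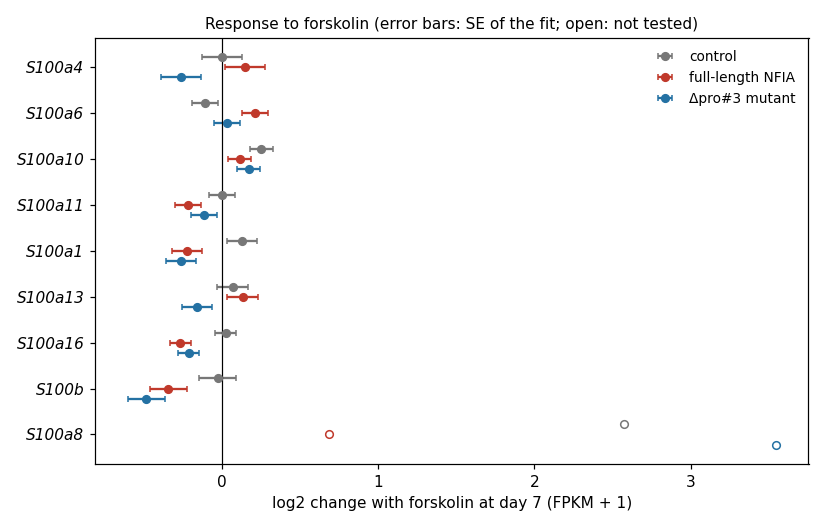
Response to forskolin on the log2(FPKM + 1) scale (x axis) of 9 S100 genes (y axis) in control (gray), full-length NFIA- (red) and Δpro#3 mutant-expressing cells (blue), with error bars for the SE of the fit. The open points of S100a8, at 2.57 in control, 0.68 in full-length NFIA- and 3.55 in mutant-expressing cells, are a description with no test, and the other 8 genes lie between -0.49 and 0.25.

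A list of 13 genes known to answer to cyclic AMP was read as a check on the treatment. Of the 12 tested, forskolin raised 10 in control cells, 12 with full-length NFIA and 11 in mutant-expressing cells, beside 7.05%, 13.9% and 11.9% of all genes. None of the 12 was lowered, and their medians were 0.69, 1.53 and 0.86. Nr4a3, an orphan nuclear receptor, had the largest rise with full-length NFIA (4.51, SE 0.10, limma adjusted p = 4.17e-15), and Pde4b, a phosphodiesterase, the largest in control cells (1.97, SE 0.07, limma adjusted p = 1.80e-11) and with the mutant (1.86, SE 0.07, limma adjusted p = 1.60e-11). Nr4a3 rose by 0.95 in control cells and by 0.98 with the mutant.

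Of 5 genes for receptors that S100 proteins are known to bind, 3 were higher and 1 lower with full-length NFIA at day 7. The shares over all genes were 31.3% and 41.1%, and the median of the 5 was 0.46 beside -0.08 over all genes. Mcam, a cell adhesion molecule, rose from 2.59 to 24.4 FPKM (2.82, SE 0.21, limma adjusted p = 7.38e-07) and Cd36, a fatty acid and scavenger receptor of adipocytes, from 16.3 to 139 FPKM (3.01, SE 0.19, limma adjusted p = 1.96e-07). Tlr4, a receptor of calprotectin, fell from 7.12 to 4.50 FPKM (-0.56, SE 0.13, limma adjusted p = 0.00264). Ager, the receptor for advanced glycation end products, did not pass, at 0.888 FPKM in control cells and 1.09 FPKM with full-length NFIA. In mutant-expressing cells only Cd36 of the 5 passed, at 0.55 (SE 0.19, limma adjusted p = 0.0325), with a median of 0.11. There 21.3% of all genes were higher and 27.5% lower.

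Of 20 other EF-hand genes tested at day 7, 8 were higher and 10 lower with full-length NFIA, beside 31.3% and 41.1% of all genes. Their median was -0.14 beside -0.08 over all genes. With the mutant 10 were higher and 5 lower, beside 21.3% and 27.5% of all genes, with a median of 0.13 beside -0.04. The falls with full-length NFIA were led by Casq1 and Casq2, the calsequestrins that store calcium in muscle (-3.58, SE 0.09, limma adjusted p = 3.07e-10, and -3.48, SE 0.09, limma adjusted p = 4.44e-10), and the rises by Efhd1 (2.32, SE 0.08, limma adjusted p = 4.35e-09) and Calm3, a calmodulin gene (1.31, SE 0.07, limma adjusted p = 5.06e-08). Efhd1 also rose with the mutant (2.22, SE 0.08, limma adjusted p = 8.46e-08).

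Of 7 S100 genes outside the member list, none reached 4 FPKM in any sample, and S100z had no fragment. S100a7a, which lies between S100a6 and S100a8, was 1.36, 1.54 and 1.51 FPKM with the Δpro#3 mutant at day 0 against 0.398, 0.694 and 0.414 FPKM in control cells. S100g, the intestinal calcium carrier calbindin-D9k, was 0.957, 1.73 and 0.889 FPKM in control cells at day 7 and had no fragment with full-length NFIA. At day 7, 2 of the 3 tested were lower with full-length NFIA and none was higher, where 41.1% of all genes were lower and 31.3% higher. With the mutant, limma passed 0 of the 3 at day 7 and limma-voom on fragments passed 0, with 0 at an unadjusted p under 0.05 in either. At day 0, 1 of 3 was higher with full-length NFIA (S100a3, by 0.43) and 1 of 3 with the mutant (S100a7a, by 0.72), and none was lower. Of all genes, 37.7% were higher with full-length NFIA and 32.5% with the mutant.

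The genes whose pattern over the 9 group means was most like that of a member were sought by Pearson correlation of log2(FPKM + 1) among 10186 genes, as a description over points that share their libraries. For S100a8 they were Ttc39c (r = 0.991), Apba3 (0.987), Ulk1 (0.973), Ldha (0.962) and Pgam1 (0.958). For S100b they were Pqlc3 (0.985), Tlcd1 (0.984), Aoc3 (0.9796), Mvd (0.974) and Ephx1 (0.973). For S100a4 they were Sp1 (0.987), Sh3bgrl3 (0.983), Ift22 (0.983), Crip1 (0.9802) and Myo9a (0.979). No other S100 gene was among the 5 nearest to any of these 3. Only genes with a highest group mean of 5 FPKM or more were searched. S100a9 and the S100 genes outside the member list were below that and could not appear.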

How the data were processed

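RNA-seq of polyadenylated RNA from 27 samples of C2C12 cells was used. Per the submitters' processing notes and the study's methods, the authors mapped the stranded libraries with STAR 2.5.3a (build mm9), used unique hits on the sense strand of each gene only, and deposited FPKM, neither scaled between samples nor on a log scale. All values were whole multiples of 1 fragment (tolerance 0.02), so fragments were worked back from FPKM and gene length. Groups and replicate numbers came from the labels.

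In R 4.3.3 with limma 3.58.1, log2(FPKM + 1) was fitted with 1 mean per group and moderation along the trend of the mean, over genes averaging at least 0.5 FPKM, on the 9 samples of a time point or the 18 of 2 conditions. P-values were 2-sided and adjusted by Benjamini-Hochberg over all genes of a comparison, and an adjusted p under 0.05 passed. Lower genes were compared by exact permutation. Intervals are exact and cover counting error only, and so does the floor of 3 fragments. The differences between changes from day 0 to day 7 were added after the data were seen. In the files 2 symbols are repeated, and their rows were kept apart.

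The members and the 12 gene lists were chosen with earlier results of these data known. All members are named, and S100a8 was tested in no comparison with samples of day 7, since its choice rests on them. A glial marker is not reported here and was left out of its list. From lists, the counts, medians and the largest rises and falls are given, and genes named outside that rule, such as Ptprc, Csf3r, Sox10, Ager and S100g, were chosen for their role or after their values were seen. Promoter sequences are from RefSeq, gene positions from the NCBIM37 annotation, and Python 3.11.15 with matplotlib 3.10.9 drew the figures. The steps were tested on simulated data. Alternatives were a pseudocount of 0.1, median-ratio scaling, no filter, a minimum of 5 FPKM, no trend, a replicate block, limma-voom on fragments and leaving out each sample in turn.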

Additional observations from a re-analysis of the deposited data

Results flagged for a closer look

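Tests of the difference between cell types were past the threshold for the following results (limma adjusted p under 0.05, log2 scale). For the response to forskolin, full-length NFIA-expressing cells differed from control cells by 0.32 for S100a6 and by -0.29 for S100a16. The value for S100a6 was 0.32 with a pseudocount of 0.1, no filter, no trend or a replicate block, where its adjusted p was 0.0507, 0.0832, 0.0501 and 0.0576 and it did not pass, and S100a16 did not pass with median-ratio scaling, at -0.21.

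For the change from day 0 to day 7, the difference between full-length NFIA-expressing and control cells was 0.90 for S100a1, 1.26 for S100a10, 0.44 for S100a11 and 1.21 for S100a16. Between Δpro#3 mutant-expressing and control cells it was 0.97 for S100a1, 0.52 for S100a10, 0.53 for S100a11, 0.65 for S100a16 and -1.001 for S100b. With limma-voom on fragments, the value for S100b in this comparison, -0.82, no longer passed. Between mutant- and full-length NFIA-expressing cells it was -0.74 for S100a10, -0.56 for S100a16 and -1.29 for S100b. For S100a10 and S100a16, both tests with control cells and the test between the constructs passed, and the 3 kinds of cells lay in the order control, mutant, full-length NFIA.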

How the results depend on the processing

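The count of members that passed kept within 1.5 times its value under all alternatives run in the 9 comparisons of constructs and the 3 of day 0 with day 7. It moved in the forskolin comparisons. Without the filter on low values it went from 1 to 2 in control cells and from 4 to 2 with full-length NFIA. For the difference of the response between full-length NFIA-expressing and control cells it went from 2 to 1 with a pseudocount of 0.1, with median-ratio scaling, without the trend and with the replicate block, which changed no other count by over 1.5 times. The numbers mark no shared culture or day in the labels, and deviations of samples with the same number had a mean correlation between -0.03 and 0.02 in the 5 fits. Leaving out 1 sample gave 0 to 1 in control cells, 1 to 5 with full-length NFIA, 1 to 4 with the mutant, 0 to 3 for the difference between full-length NFIA and control cells and 0 to 1 for that between the mutant and full-length NFIA.

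Of single values, S100a8 reversed in the difference of the response between mutant-expressing and control cells (-1.14 with a pseudocount of 0.1, -1.30 with limma-voom). S100a13 reversed with scaling in the change over 7 days (0.0060 with full-length NFIA, 0.024 with the mutant). Leaving out 1 sample took S100a10 at day 0 with full-length NFIA from -0.024 to 0.052 and S100a4 after forskolin between the constructs from -0.13 to 0.035, neither of which passed, and S100a8 over 7 days in control cells, which was not tested, from -0.043 to 0.25. The causes were not tested. With a minimum of 5 FPKM, S100a9 and S100b were left out of every fit and S100a8 of that of day 0, so no call on S100b was checked at that setting.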
